A study of Mus musculus with 60 samples.

Results

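The genes described here encode the nuclear subunits of respiratory complex III (cytochrome bc1), complex IV (cytochrome c oxidase) and complex V (ATP synthase). Members were all protein-coding genes of the deposited count table whose mouse symbol begins with Uqcr, with Cox and a digit from 4 to 8, or with Atp5, without Cox7a1 and Cox8b. This gave 42 genes of 54352 in the table (21818 of them protein coding): 8 of complex III, 16 of complex IV and 18 of complex V. The 42 genes carry 41 symbols, because Atp5o is listed under 2 Ensembl identifiers, and the second, ENSMUSG00000116933, had no count in any library.

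RNA was measured by 3′ digital gene expression sequencing, which counts transcript 3′ ends, in subcutaneous white fat (scWAT), visceral white fat (vWAT) and triceps muscle of 20 C57BL/6JN mice. Each tissue held 4 groups of 5 mice, which for 6 weeks ate chow (fat as 10% of energy) or a diet in which fat gave 60% (HFD), and were kept sedentary or trained by voluntary wheel running in the last 3 weeks. All mice were 12 weeks old, were fasted for 6 hours and had their wheels locked for 24 hours before tissue was taken, so the trained groups show a state after rest, not an acute bout. The 60 libraries came from whole tissue, 1 per mouse and tissue, and the mice were wild-type animals of 1 inbred substrain with no transgene named.

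Complex III passes electrons from ubiquinol to cytochrome c, complex IV passes them on to oxygen, and both pump protons across the inner mitochondrial membrane. ATP synthase lets the protons flow back through a rotating ring of c subunits and uses that flow to make ATP. Each complex joins subunits made in the nucleus with subunits encoded by mitochondrial DNA, and several nuclear subunits of complex IV have a form for heart and skeletal muscle beside a general form. White fat holds few mitochondria compared with muscle, and endurance training is known to raise mitochondrial content in muscle.

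Library totals ran from 505336 to 744581 counts (median 666522.5), and a count of 0 allows up to 3 counts, or 4.03 to 5.94 CPM (counts per 1000000 counts). CPM are given per library on total counts, in the order of replicates 1 to 5, while log2 fold changes come from edgeR's quasi-likelihood test with TMM scaling and Benjamini-Hochberg adjusted p-values, called below 0.05; each mouse is 1 replicate, and the p-values measure the spread between these mice. Shares of all genes called refer to the main fit at an adjusted p below 0.05. Where members are counted at an unadjusted p or in another fit, the share of all genes was not set beside them unless stated. Of the 8 adipocyte markers, 8 had a count in every scWAT and every vWAT library, and of the 15 skeletal muscle markers, 15 had a count in every triceps library. The labels state that 12 wells were pooled per preparation, and the codes in the column headers were cut into blocks of 12. These blocks, called pools here, are not named by the labels, and the codes alone do not fix where a block begins. The cut was placed where marker counts of these data changed in earlier work. Markers that follow a pool are therefore no support for it, and every pool fit rests on this cut. The scWAT libraries came from a pool of 9 and a pool of 11 that each held all 4 groups. In vWAT, 5 chow libraries lay in 1 pool, 12 libraries of all groups in another and 3 HFD libraries in the third, and triceps was split in the same way. Pools are named by their number of libraries in the tissue. The third vWAT pool and the triceps pool of 5 chow libraries are 1 block of the codes. Some fat libraries held transcripts of other tissues: the 15 muscle markers summed to 117 to 67816 counts in scWAT, the 9 heart markers to 456 to 629 counts in the 5 chow libraries of the first vWAT pool, and the muscle markers to 1843 to 2890 counts in the 3 HFD libraries of the third. Intestine markers summed to 164 to 235 counts in those 3 libraries, where no other vWAT library exceeded 14, and to 130 to 168 counts in the 5 chow triceps libraries of that same block. Whether such transcripts came with the tissue or from the shared preparation was not tested. Lymph node stroma genes exceeded 100 counts in 6 scWAT libraries, all from chow mice (403 to 1108 counts), and in 4 vWAT libraries, all from HFD mice (118 to 248 counts). With B cell markers added, the sums were 572 to 1500 and 124 to 252 counts, so B cell markers added few counts in vWAT. Libraries said to hold lymph node transcripts are named by the stroma genes alone.

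Promoter sequences were taken from RefSeq for the GRCm38.p6 (mm10) assembly and matched 31 of the 41 symbols. The match was by symbol or, for Atp5f1 (Atp5pb in RefSeq), by synonym. Each covered 250 bases before to 50 bases after the annotated start. The stretches shown belong to the complex III member with the lowest adjusted p in scWAT under HFD (Uqcr10), to both complex IV members whose level was far lower in triceps than in fat (Cox6a1 and Cox8a), and to a gene of the ATP synthase c ring that was higher in trained muscle (Atp5g3). They lie on the minus strand at chr11:4704315-4704524, chr5:115348929-115349138, chr19:7217587-7217796 and chr2:73911297-73911506, in that order, and run 5′ to 3′ from 180 bases before to 30 bases after the start. Capitals mark exact matches on either strand to the core letters bound by NRF1 (CGCANGCG), by ETS factors (ACTTCCGG) or by the estrogen-related receptors (TCAAGGTCA).
Uqcr10: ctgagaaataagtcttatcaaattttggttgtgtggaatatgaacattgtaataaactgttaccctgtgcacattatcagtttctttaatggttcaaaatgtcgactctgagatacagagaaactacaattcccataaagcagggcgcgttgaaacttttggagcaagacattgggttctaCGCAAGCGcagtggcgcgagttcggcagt
Cox6a1: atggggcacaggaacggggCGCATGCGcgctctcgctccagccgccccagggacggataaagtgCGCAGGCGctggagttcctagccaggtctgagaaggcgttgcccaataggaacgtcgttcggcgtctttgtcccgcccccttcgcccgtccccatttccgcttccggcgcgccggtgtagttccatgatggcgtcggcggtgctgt
Cox8a: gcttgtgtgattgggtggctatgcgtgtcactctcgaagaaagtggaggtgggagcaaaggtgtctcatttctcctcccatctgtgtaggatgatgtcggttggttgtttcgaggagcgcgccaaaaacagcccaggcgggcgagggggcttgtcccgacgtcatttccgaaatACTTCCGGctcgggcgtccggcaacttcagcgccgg
Atp5g3: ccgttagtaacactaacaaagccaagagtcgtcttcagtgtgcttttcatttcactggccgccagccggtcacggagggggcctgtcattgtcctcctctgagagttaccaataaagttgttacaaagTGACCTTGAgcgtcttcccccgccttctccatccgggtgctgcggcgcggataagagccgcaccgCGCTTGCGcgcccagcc
Uqcr10 carries 1 NRF1 match beside its start, Cox6a1 carries 2 NRF1 matches upstream of its start, Cox8a shows an ETS match, and Atp5g3 carries the receptor letters on the reverse strand (as TGACCTTGA) and an NRF1 match. NRF1 letters occurred in 12 of the 31 member promoters (38.7%), against 8.42% of 27025 promoters of the same length. ETS letters occurred in 4 members (12.9% against 4.0% of all promoters), and the YY1 core AAGATGGC in 2 members, Atp5f1 and Atp5j2 (6.5% against 2.88%). Receptor letters occurred in 1 member, Atp5g3 (3.2% against 0.41%), and the TATA letters TATAAA in 3 members, Atp5l, Atp5md and Cox7b2 (9.7% against 14.16%). The NRF1 and ETS letters do not contain one another. These matches describe the letters of the window and say nothing of binding.

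After a filter on low counts, 37 of the 42 genes were tested in each tissue (8 of complex III, 12 of complex IV and 17 of complex V). The second Atp5o identifier and 4 isoform genes were not tested. Cox4i2, the form of subunit IV induced by low oxygen in lung, reached at most 11.4 CPM in vWAT, 9.60 CPM in scWAT and 5.51 CPM in triceps. Cox6b2, a testis form of subunit VIb, reached at most 10.9 CPM in vWAT, 5.66 in scWAT and 1.48 in triceps. Cox7b2 was at 0 in all 60 libraries, and Cox8c reached at most 4.35 CPM in vWAT and was at 0 in scWAT and triceps.

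The subunit genes together took 2.09 to 3.59% of a library's counts in scWAT, against 2.04 to 3.03% for vWAT and 4.02 to 5.80% for triceps. The highest level in scWAT was that of Cox6c, which encodes a small subunit at the membrane face of complex IV, with a median of 1852 CPM over 20 libraries. Atp5l (subunit g of ATP synthase, 1524 CPM), Cox6b1 (1456 CPM), Cox4i1 (1419 CPM) and Cox8a (1390 CPM) came next. In vWAT the order was Cox8a (1501 CPM), Atp5l (1442 CPM), Cox6c (1413 CPM), Cox6b1 (1284 CPM) and Cox4i1 (1100 CPM), and the ranges of all 5 overlapped within each depot. In triceps Cox6c (2743 CPM), Atp5j (2738 CPM) and Cox6a2 (2629 CPM) led, again with overlapping ranges, and were followed by Atp5g1 (2226 CPM). Because reads are counted at transcript ends, these levels were not divided by gene length.

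Chow sedentary mice were compared between tissues in 1 edgeR fit of all 60 libraries with the mouse as a block. In triceps against scWAT 35 of the 37 members were higher and 2 lower, where 25.9% of the 8501 genes tested were higher and 33.4% lower. Against vWAT 35 were higher and 2 lower, where 26.6% of all genes were higher and 32.0% lower. The median log2 fold change of the members was 1.42 and 1.72, against −0.29 and −0.23 over all genes tested. Scaling by total counts alone moved the median of all genes to −1.19 and −1.20 and left 23 members higher and 4 lower against scWAT and 23 higher and 2 lower against vWAT. The members' median minus that of all genes was 1.70 and 1.95 with TMM scaling and 1.69 and 1.94 with total counts. Under total counts the direction turned against scWAT for Cox4i1 (from 0.42 to −0.50), Uqcrq (from 0.56 to −0.36) and Uqcr10 (to −0.25), and against vWAT for Cox4i1 (from 0.85 to −0.13). Levels of a gene in whole tissue do not separate fewer cells of a type from less RNA per cell.

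Cox6a1 and Cox8a were lower in triceps by the fit of either scaling. Cox6a1, the general form of subunit VIa, which sits where the monomers of complex IV meet, measured 32.1, 37.1, 41.5, 29.2 and 21.1 CPM in triceps, 491, 499, 665, 859 and 879.6 in scWAT and 452, 503, 644, 539.9 and 483 in vWAT of chow sedentary mice. No triceps library reached any fat library. The log2 fold change was −3.46 against scWAT (SE 0.20, adjusted p = 1.46e-20) and −3.04 against vWAT (SE 0.20, adjusted p = 6.99e-19). Cox8a, the general form of the small subunit VIII, measured 87.5, 93.3, 105, 72.2 and 74.4 CPM in triceps, 888, 752, 999.7, 2299 and 2289 in scWAT and 1574, 1527, 1525, 1451 and 1303 in vWAT. Its log2 fold change was −3.05 against scWAT (SE 0.30, adjusted p = 2.07e-11) and −3.11 against vWAT (SE 0.29, adjusted p = 6.69e-12), again without overlap. Cox8b, the muscle form of subunit VIII and no member by the rule, made up 94.5 to 96.7% of the Cox8a and Cox8b counts in triceps and 11.7 to 57.0% in scWAT.

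Cox6a2, the heart and skeletal muscle form of subunit VIa (ENSMUSG00000030785, chr7:128205435-128206387), was the main form in muscle. It made up 98.3 to 99.6% of the counts of the pair in the 20 triceps libraries. Cox6a2 measured 2988, 2929, 2637, 1837 and 2620.1 CPM in triceps of chow sedentary mice, 383, 7.92, 34.7, 13.8 and 11.7 in scWAT and 176, 226, 188, 1.56 and 0 in vWAT. The fat values differed widely between libraries of a group: the share of Cox6a2 of the pair ran from 0.258 to 80.6% in scWAT. The highest shares in scWAT were those of HFD sedentary replicate 4 (80.6%), chow trained replicate 3 (50.4%), chow sedentary replicate 1 (43.8%) and chow trained replicate 4 (33.2%), which were also the 4 libraries with the most muscle marker counts (18830 to 67816). In vWAT the share was 20.8 to 31.0% in the 5 chow libraries with heart transcripts, 11.1 to 14.6% in the 3 HFD libraries with muscle transcripts and at most 0.370% in the 12 others. Across the 20 scWAT libraries the genes whose level was most like that of Cox6a2 were Pvalb, Atp2a1, Ckm, Tpm1 and Acta1 (Spearman correlation of log2 CPM 0.977, 0.976, 0.974, 0.974 and 0.971), all genes of muscle fibres. These points share libraries and depth, so the values are a description.

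**Figure D1:**
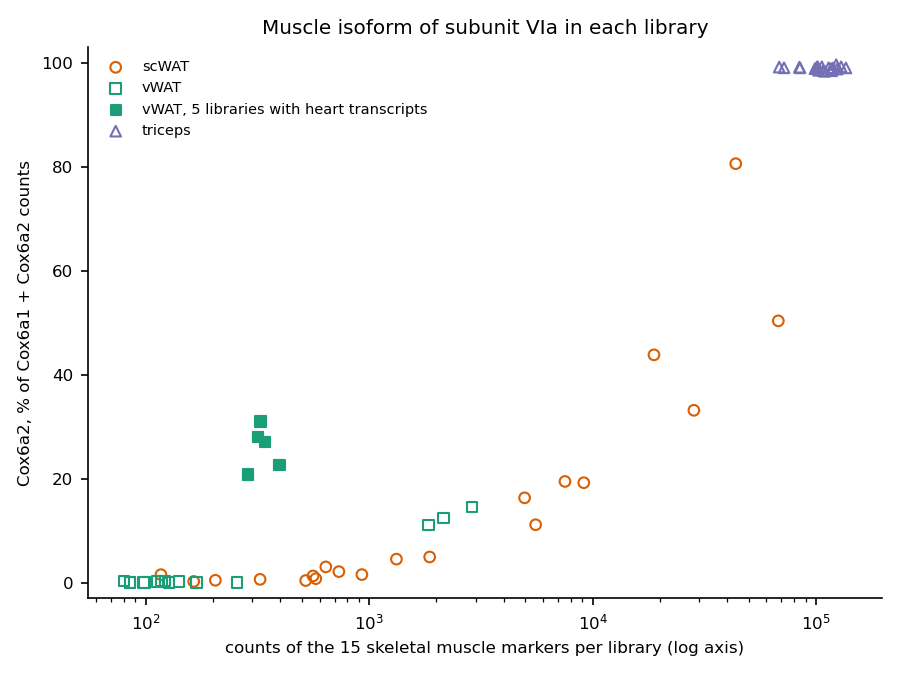
Share of Cox6a2 among the counts of Cox6a1 and Cox6a2 (percent, vertical) against the summed counts of 15 skeletal muscle markers (log axis, horizontal), 1 point per library. Triceps libraries lie between 98.3 and 99.6%, scWAT libraries rise to 80.6% with the muscle marker counts, and the 5 vWAT libraries with heart transcripts stand apart at 20.8 to 31.0%.

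Atp5g1 had the largest tissue difference after Cox6a2. It is 1 of 3 genes, with Atp5g2 and Atp5g3, that encode the same mature c subunit behind different import sequences. In chow sedentary mice it measured 1794, 2037, 2172, 1869 and 1712 CPM in triceps, 445, 209.8, 157, 134 and 156 in scWAT and 360.2, 339, 358, 240.3 and 201 in vWAT, without overlap between triceps and either depot. The log2 fold change of triceps was 4.17 against scWAT (SE 0.26, adjusted p = 1.2e-18) and 3.71 against vWAT (SE 0.26, adjusted p = 1.58e-17). The highest scWAT value of these was that of replicate 1, the group's library with the most muscle transcripts, and over all 4 scWAT groups the top value, 729 CPM, was that of HFD sedentary replicate 4. What part muscle transcripts have in the fat values of Atp5g1 was not tested.

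Between the depots, 5 members were higher in scWAT than in vWAT of chow sedentary mice and 32 were not called, against 5.60% of all genes higher and 6.12% lower. They were Uqcr10 (log2 fold change 0.66, SE 0.14, adjusted p = 0.000936 by edgeR), Uqcrq (0.54), Cox7b (0.53), Cox6c (0.51) and Cox4i1 (0.43). The members' median was 0.30. With chow sedentary libraries alone 1 member was called, and leaving out 1 mouse gave 1 to 9 (1 without replicate 3, 4 or 5). Markers of other cells differed between the depots too: 5 of 7 beige and brown fat markers tested (median 3.64), 8 of 9 lymph node and B cell markers (median 5.23) and 7 of 15 muscle markers (median 6.70) were higher in scWAT, and 5 of 6 heart markers (median −5.19) and 6 of 11 macrophage markers (median −0.88) were lower. The beige and brown fat list includes Cox7a1 and Cox8b, which encode complex IV subunits, and the macrophage list includes Lpl, which fat cells also express. The part of all these markers in the depot difference was not tested.

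Genes of complexes III and IV were lower on HFD in the scWAT of sedentary mice. Of the 37 members, 11 were lower at an adjusted p below 0.05 and none was higher, against 2.80% of 7069 genes lower and 3.55% higher. These were 5 of 8 in complex III (Uqcr10, Uqcrq, Uqcrh, Uqcrfs1 and Uqcrb), 6 of 12 in complex IV (Cox6a1, Cox6c, Cox7b, Cox7a2, Cox5a and Cox6b1) and 0 of 17 in complex V. The median log2 fold change was −0.65 in complex III, −0.61 in complex IV and −0.35 in complex V, −0.47 over all members and −0.05 over all genes tested. For 7 members every HFD sedentary library lay below every chow sedentary library in CPM (Uqcr10, Uqcrq, Uqcrh, Cox6c, Cox6b1, Cox7a2 and Cox7b), against 1.22% of all genes. Scaling by total counts moved the median of all genes to 0.14 and left 6 members called lower, while the members' median minus that of all genes was −0.42 with TMM and −0.44 with total counts.

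**Figure D2:**
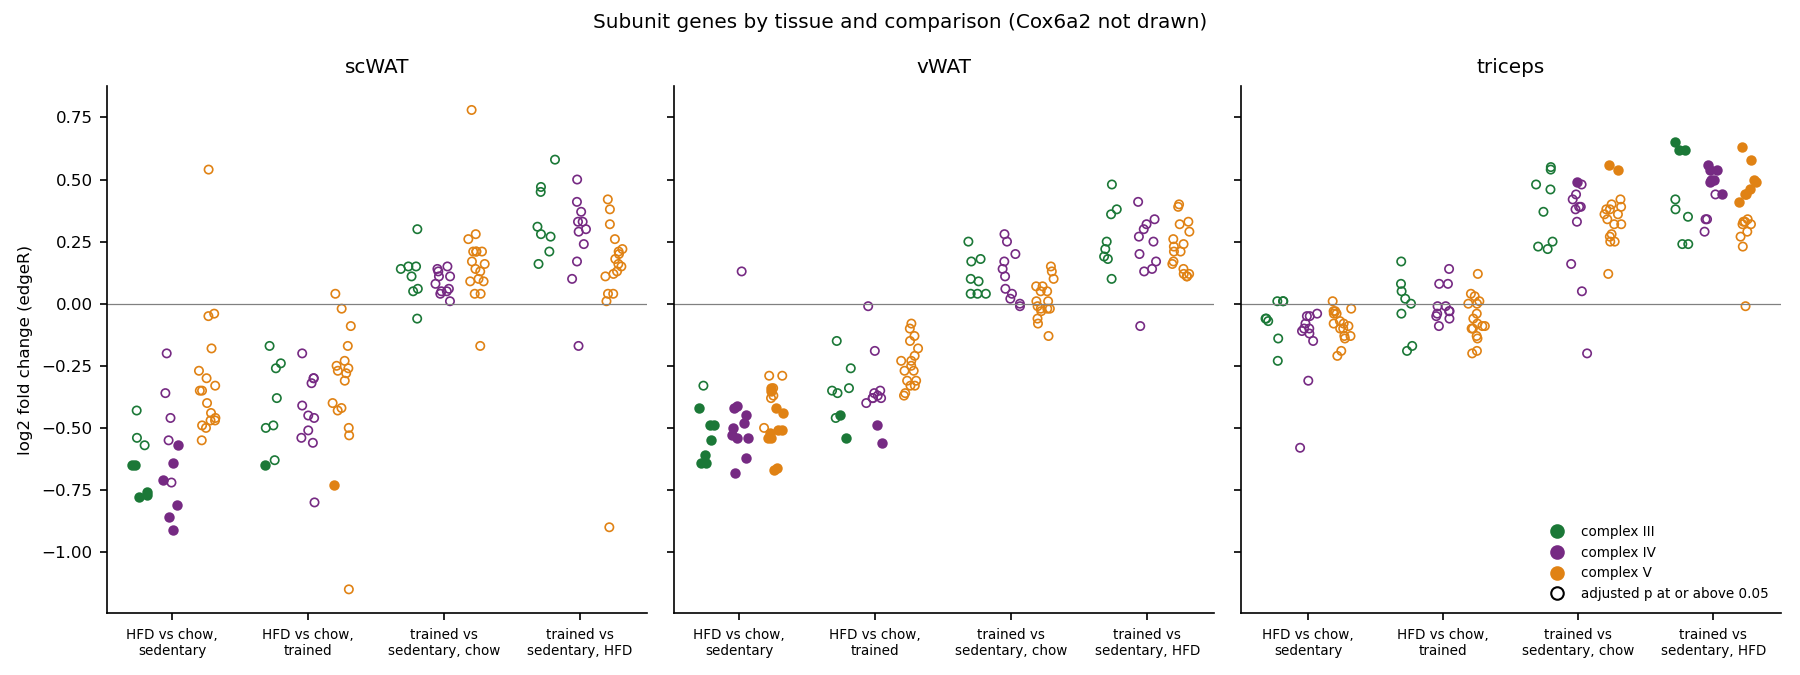
Log2 fold changes (vertical) of the subunit genes in 4 comparisons per tissue, coloured by complex, with filled points for an adjusted p below 0.05; Cox6a2 is not drawn. The filled points are 11 lower in scWAT and 28 in vWAT for HFD in sedentary mice, 2 and 4 in trained mice, and 3 higher in triceps for training on chow and 18 on HFD.

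In complex III, Uqcr10, a small subunit beside the Rieske protein (ENSMUSG00000059534, chr11:4701973-4704342), measured 840.2, 902, 1157, 1209 and 1010.3 CPM in chow sedentary mice and 690.1, 611, 722, 674 and 719 CPM in HFD sedentary mice. Every HFD value lay below every chow value, and the log2 fold change was −0.78 (SE 0.17, adjusted p = 0.00702). Uqcrq, which encodes the ubiquinone-binding subunit VII, measured 1273, 1365, 1755, 1801 and 1189.6 CPM on chow and 966, 914, 980.2, 1108 and 997 on HFD, also without overlap, with a log2 fold change of −0.76 (SE 0.20, adjusted p = 0.02). Uqcrfs1, the Rieske iron-sulfur protein that carries electrons to cytochrome c1, measured 255, 208, 280.5, 413 and 238 CPM on chow and 185, 171, 218, 205 and 158 on HFD, a log2 fold change of −0.77 (SE 0.22, adjusted p = 0.0337). Chow replicate 2 lay below HFD replicate 3, and chow replicate 4 was the highest of all. The core protein gene Uqcrc1 measured 134, 69.3, 126, 219 and 136 CPM on chow and 116, 109, 119, 115 and 129.5 on HFD, overlapping ranges with a log2 fold change of −0.43 (SE 0.25, adjusted p = 0.335). The other members of complex III had log2 fold changes from −0.65 (Uqcrb and Uqcrh, both called) to −0.54 (Uqcr11, not called).

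In complex IV, Cox6a1 (ENSMUSG00000041697, chr5:115345642-115348981) measured 491, 499, 665, 859 and 879.6 CPM on chow and 442, 348, 543, 264 and 496 on HFD. The HFD library with the lowest value, replicate 4, was the one with the highest share of Cox6a2, and the groups overlapped. The log2 fold change was −0.91 (SE 0.21, adjusted p = 0.00866). Cox6c measured 2011, 1963, 2088, 2289 and 2026 CPM on chow and 1549, 1280.1, 1626, 1535 and 1198 on HFD, without overlap, a log2 fold change of −0.71 (SE 0.18, adjusted p = 0.0168). Cox4i1, the general form of the regulatory subunit IV, measured 1342, 1415, 1599.5, 1802 and 1647 CPM on chow and 1232, 1033, 1404, 1159.6 and 1265 on HFD, with a log2 fold change of −0.55 (SE 0.17, adjusted p = 0.0525), just outside the threshold, where Uqcrb lay just inside it (adjusted p = 0.0487).

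Cox6b1, which links the monomers on the outer face of complex IV, measured 1467, 1435, 1656, 2004 and 1652 CPM on chow and 1197, 1100.5, 1284, 1312 and 1398 on HFD, without overlap (log2 fold change −0.57, SE 0.17, adjusted p = 0.0438). Cox7a2, the general form of subunit VIIa, measured 1099.6, 1001, 1391, 1367 and 1191 CPM on chow and 939, 782, 998, 847 and 875 on HFD, narrowly without overlap (log2 fold change −0.64, SE 0.17, adjusted p = 0.0261). Its relative Cox7a2l measured 182, 303, 165, 309 and 253 CPM on chow and 204, 216, 282, 229.6 and 254 on HFD, with wide overlap (log2 fold change −0.20, SE 0.18, adjusted p = 0.573). Cox6a2 measured 2.93, 67.9, 131, 1093 and 15.6 CPM on HFD, against the chow values above, with a log2 fold change of 1.45 (SE 1.35, adjusted p = 0.595); it turned to −0.98 without HFD replicate 4. Cox7b and Cox5a were lower (−0.81 and −0.86), and Cox5b (−0.72) and Cox7c (−0.36) were not called.

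No ATP synthase gene passed the test in scWAT by edgeR, although 16 of 17 had a negative log2 fold change. Atp5b, the catalytic beta subunit, measured 779.9, 669, 680.3, 884 and 863 CPM on chow and 582, 542, 751, 549.9 and 597 on HFD, overlapping, with a log2 fold change of −0.55 (SE 0.18, adjusted p = 0.0719). Atp5a1, the alpha subunit beside it, measured 934, 718, 936, 1088 and 682 CPM on chow and 841, 694, 757, 818 and 672 on HFD (log2 fold change −0.40, SE 0.20, adjusted p = 0.247). Atp5e, the epsilon subunit of the central stalk, measured 695, 627, 669, 859 and 744 CPM on chow and 533, 502, 752, 961 and 607 on HFD (log2 fold change −0.27, SE 0.21, adjusted p = 0.499). All of these groups overlapped. Atp5k, subunit e at the dimer interface, measured 718, 673, 704, 885 and 764 CPM on chow and 507, 446, 730.0, 789 and 600.5 on HFD (log2 fold change −0.46, SE 0.20, adjusted p = 0.18). Atp5md, listed as Usmg5 in the gene annotation and also called DAPIT, measured 1169, 948, 1196, 1217 and 968 CPM on chow and 920.1, 816, 994, 1177 and 995 on HFD (log2 fold change −0.35, SE 0.18, adjusted p = 0.281). Atp5g1 alone had a positive value, 0.54 (SE 0.43, adjusted p = 0.52), from 243, 282, 268, 729 and 234 CPM on HFD. It turned to −0.01 without HFD replicate 4, the library with 43741 muscle marker counts.

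The count of 11 rested on the whole set of libraries. Within the pool of 9 none was called, with a median of −0.61 and all 37 members negative, and within the pool of 11 there were 2 (Cox6a1 and Uqcr10), with a median of −0.52. With the pool as a factor there were 17. Without chow sedentary replicate 4 or HFD sedentary replicate 2 or 5 the count was 2, and without chow sedentary replicate 3 or HFD sedentary replicate 1 it was 7 and 3. Uqcr10 and Cox6a1 were called in all 10 fits that left out 1 library of either group. Without the libraries that held lymph node transcripts, all of them chow, 4 members were called lower and the median was −0.54. That fit kept only chow sedentary replicates 1 and 3, both in the pool of 9, against HFD libraries of both pools. It therefore cannot separate lymph node content from group size or pool. The share of mitochondrially encoded transcripts was 15.5 to 21.5% of counts in the chow sedentary and 8.33 to 14.6% in the HFD sedentary libraries. The 8 beige and brown fat markers, of which 5 had a count in every scWAT library, summed to 844 to 2638 counts on chow and 178 to 736 on HFD. That list includes Cox7a1 and Cox8b, the complex IV genes left out by the rule. Its sum was 1521 to 2923 counts in triceps, so it is not particular to beige fat. The 12 macrophage markers, 9 of them with a count in every library, summed to 2458 to 5300 and 3341 to 8108. They include Lpl, which fat cells also express. The adipocyte markers summed to 16339 to 29531 and 17849 to 34356. The part of these in the result was not tested.

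**Figure D3:**
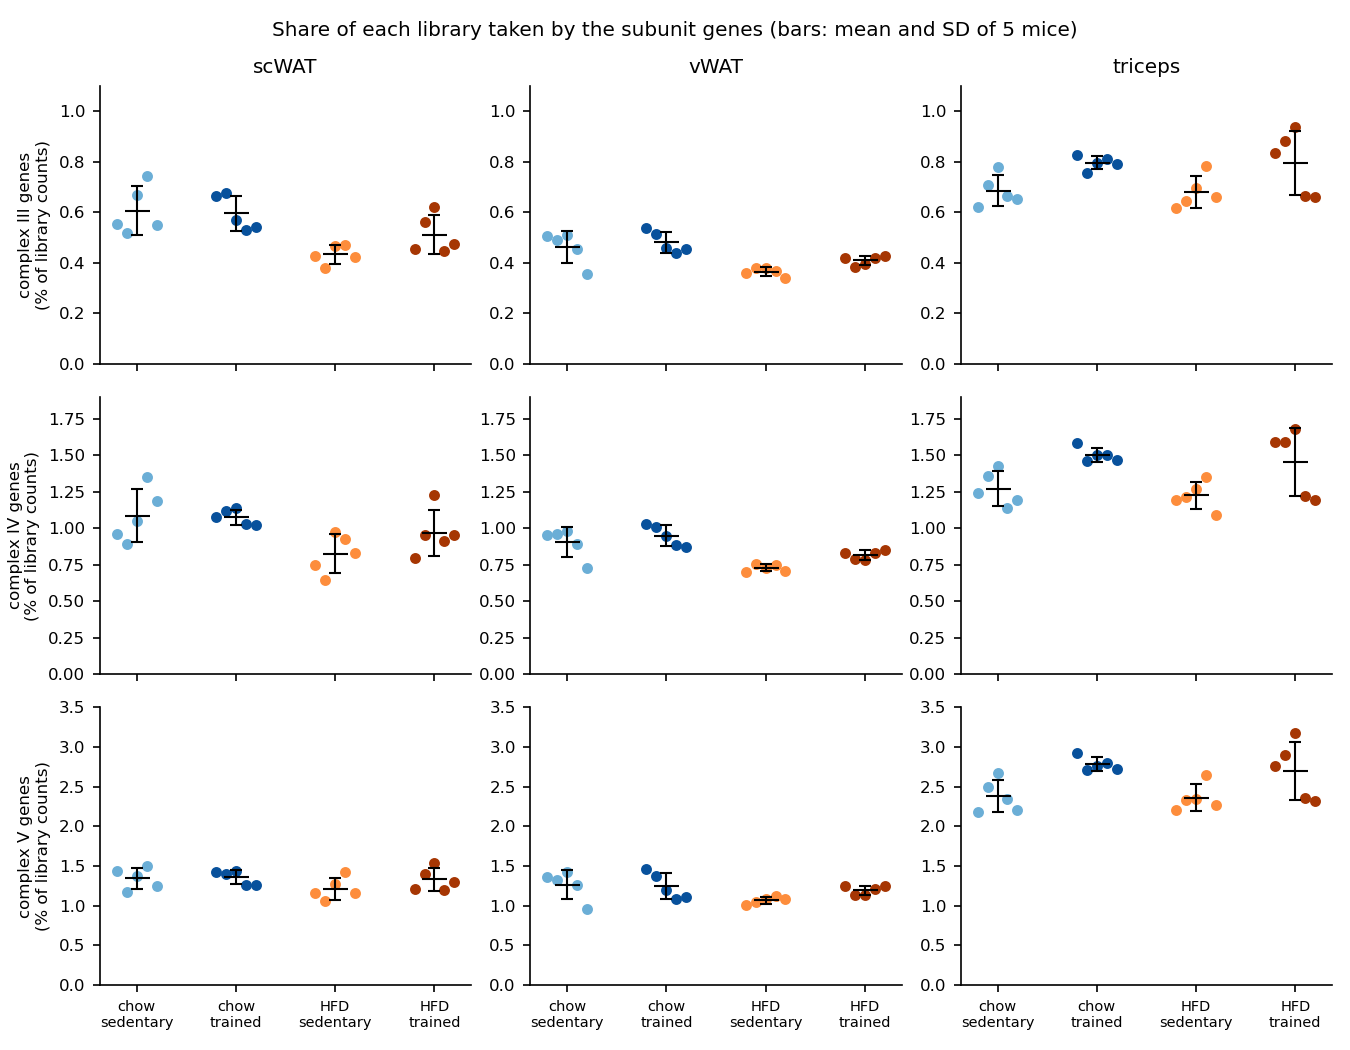
Share of each library's counts (percent, vertical) taken by the genes of complex III (top), IV (middle) and V (bottom) in 3 tissues and 4 groups, with the mean and SD of 5 mice. Complex III shares of the HFD sedentary scWAT libraries lie below those of all chow sedentary libraries, and in triceps the HFD trained group splits into 3 higher and 2 lower libraries.

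In vWAT of sedentary mice the lower levels on HFD reached all 3 complexes. Of 37 members, 28 were lower and none higher, against 4.15% of 6990 genes lower and 3.92% higher. They were 7 of 8 in complex III, 10 of 12 in complex IV and 11 of 17 in complex V, with medians of −0.52, −0.51 and −0.44. Over all members the median was −0.50, against −0.01 over all genes tested. Only 3 members had every HFD library below every chow library in CPM (Cox4i1, Cox6c and Uqcrb), against 1.20% of all genes. All 11 members called in scWAT were among the 28 called in vWAT, which is 100% of the first list and 39.3% of the second; the same mice gave both depots. Scaling by total counts moved the median of all genes to 0.19 and left 7 members called lower, with the members' median minus that of all genes at −0.48 under both scalings.

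Uqcrq led complex III, with 1215, 1074, 1129, 1108 and 765 CPM in chow sedentary mice and 738, 864, 845, 818 and 722 in HFD sedentary mice. Of the chow libraries, replicate 5 lay inside the HFD range and the other 4 above it. The log2 fold change was −0.61 (SE 0.12, adjusted p = 0.0012). Uqcr10 measured 791, 636, 746, 689.7 and 523 CPM on chow and 556, 542, 551, 534 and 469 on HFD, with a log2 fold change of −0.55 (SE 0.12, adjusted p = 0.00209). Here again chow replicate 5 was the only chow library inside the HFD range. Uqcrfs1 measured 219, 267, 267, 214 and 172 CPM on chow and 189.7, 190.3, 185, 169.8 and 197 on HFD (log2 fold change −0.49, SE 0.13, adjusted p = 0.0183), and Uqcrc1 measured 94.8, 130.2, 143, 96.8 and 86.1 and 100.1, 99.98, 108, 109 and 88.2 (log2 fold change −0.33, SE 0.19, adjusted p = 0.374). Uqcrc1 was the 1 member of complex III not called, and Uqcr11, Uqcrc2, Uqcrb and Uqcrh were lower by log2 values of −0.64 to −0.42.

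Cox4i1 had the lowest adjusted p of all members (ENSMUSG00000031818, chr8:120668222-120674207). It measured 1234, 1362, 1329, 1186 and 990.1 CPM on chow and 841, 974, 858, 907 and 804 on HFD, without overlap, and the log2 fold change was −0.68 (SE 0.11, adjusted p = 0.000114). Cox6c measured 1556, 1649, 1551, 1564 and 1303 CPM on chow and 1094, 1203, 1209, 1154 and 1027 on HFD, also without overlap (log2 fold change −0.62, SE 0.11, adjusted p = 0.0003). Cox6a1 measured 452, 503, 644, 539.9 and 483 CPM on chow and 402, 461, 489, 482 and 432 on HFD, with overlap (log2 fold change −0.41, SE 0.11, adjusted p = 0.0192), and the chow libraries with heart transcripts (replicates 1 to 3) were among its lowest and its highest. Cox8a measured 1574, 1527, 1525, 1451 and 1303 CPM on chow and 1186, 1368, 1293, 1322 and 1174 on HFD (log2 fold change −0.42, SE 0.11, adjusted p = 0.0115).

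Cox6b1 measured 1665, 1387, 1590.3, 1503 and 1134 CPM on chow and 1219, 1251, 1117, 1225 and 1190.0 on HFD (log2 fold change −0.48, SE 0.11, adjusted p = 0.00378), and Cox7a2 measured 1064, 1044, 1062, 1067 and 711 and 778, 845, 843, 809.8 and 756 (log2 fold change −0.50, SE 0.12, adjusted p = 0.00565). In both, chow replicate 5 lay below every other chow library. Cox7a2l was the 1 member with a positive value, 0.13 (SE 0.14, adjusted p = 0.695), from 336, 301, 311, 247 and 220.0 CPM on chow and 342, 299.9, 340.3, 400.5 and 395 on HFD. Cox6a2 measured 1.49, 1.61, 1.51, 1.45 and 61.3 CPM on HFD (log2 fold change −3.32, SE 1.59, adjusted p = 0.26), where the last value is that of a library with muscle transcripts and the 3 high chow values are those of libraries with heart transcripts. Cox5a, Cox5b, Cox7b and Cox7c were lower, by log2 values of −0.54 to −0.45.

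In ATP synthase, Atp5j2, which encodes subunit f of the membrane part, measured 1014, 819, 964, 883 and 639 CPM on chow and 559, 653, 664, 643 and 631 on HFD, a log2 fold change of −0.66 (SE 0.12, adjusted p = 0.000414). Atp5c1, the gamma subunit that forms the rotating central stalk, measured 749.8, 796, 799, 783 and 559.6 CPM on chow and 560.2, 527, 504, 528 and 544 on HFD (log2 fold change −0.67, SE 0.12, adjusted p = 0.000504). In both genes chow replicate 5 was within or at the edge of the HFD range and the other 4 chow libraries lay above it. Atp5b measured 702, 794, 765, 579 and 440.1 CPM on chow and 430.3, 576, 607, 541 and 486 on HFD (log2 fold change −0.51, SE 0.15, adjusted p = 0.0243), and Atp5k measured 691, 633, 667, 610.1 and 451 and 423, 522, 495, 464 and 505 (log2 fold change −0.54, SE 0.13, adjusted p = 0.00692). Both were lower, with 1 chow library inside the HFD range of Atp5k and more overlap in Atp5b. Atp5a1 was not called, with 717, 706, 848, 651 and 537 CPM on chow and 586, 614, 604, 644 and 635 on HFD (log2 fold change −0.37, SE 0.13, adjusted p = 0.0726).

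Atp5e measured 793, 689, 631, 610.1 and 454 CPM on chow and 595, 574, 622, 599 and 595 on HFD (log2 fold change −0.29, SE 0.13, adjusted p = 0.174), and Atp5md measured 1031, 1004, 992, 949 and 697 and 844, 824, 887, 974 and 876 (log2 fold change −0.29, SE 0.13, adjusted p = 0.18). Neither was called. The peripheral stalk genes Atp5h (−0.52), Atp5j (−0.51) and Atp5o (−0.54) were lower, and Atp5f1 of the same stalk was not called (−0.38, adjusted p = 0.0565). Of the c ring genes, Atp5g2 (−0.44) and Atp5g3 (−0.35) were lower, and Atp5g1 had a value of −0.50 and was not called (SE 0.19, adjusted p = 0.118). Atp5l and Atp5mpl were lower (−0.34 and −0.42), and Atp5d was not called (−0.34).

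Pool and diet were partly joined in vWAT. Chow sedentary replicates 1 to 3 came from the pool of 5 chow libraries and replicates 4 and 5 from the pool of 12, and the 5 chow sedentary libraries gave the members 2.82, 2.77, 2.92, 2.60 and 2.04% of counts, in the order of the replicates. The HFD sedentary libraries gave 2.07, 2.17, 2.19, 2.24 and 2.13%. Within the pool of 12 alone none of the 36 members tested was called lower, 9 had an unadjusted p below 0.05 and the median was −0.25. With the pool as a factor 5 members were called and the median was −0.31. Without the 4 HFD libraries that held lymph node transcripts 10 were called, with a median of −0.49. The pool of 5 held only chow and the pool of 3 only HFD libraries, so these fits compare the diets through the pool of 12. Mitochondrially encoded transcripts took 12.9 to 18.9% of counts on chow and 6.14 to 9.64% on HFD, and the macrophage markers (11 of 12 with a count in every library) summed to 5801 to 7931 and 7824 to 10748 counts. Lpl, which fat cells also express, is among those markers. The adipocyte markers summed to 27635 to 35361 and 23532 to 28975 counts, and 5 of 8 were called lower (median −0.56), against 4.15% of all genes. The beige and brown fat markers summed to 69 to 338 and 51 to 125 counts, with 275 to 338 in the chow libraries with heart transcripts, and 2 of the 3 tested were called lower (Cidea and Cox8b, median −2.24). Their part in the result was not tested.

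In trained mice fewer members passed the test under HFD; whether the effect differed from that in sedentary mice was tested as an interaction. In scWAT 2 of 37 members were lower, against 2.01% of all genes lower, with a median of −0.40 (−0.12 when scaled by total counts, where none was called). They were Uqcr10 and Atp5mpl. Uqcr10 measured 1179, 1218, 915, 1009 and 960.4 CPM in chow trained mice and 716, 878, 996, 706 and 749.5 in HFD trained mice, with overlap (log2 fold change −0.65, SE 0.17, adjusted p = 0.0278). Atp5mpl, a small membrane subunit of ATP synthase, measured 724, 674, 819, 581 and 702 CPM on chow and 447, 536, 587, 482 and 512 on HFD (log2 fold change −0.73, SE 0.22, adjusted p = 0.0464); its call was kept in 1 of the 10 fits that left out a library, and that of Uqcr10 in 6. Within either scWAT pool none was called.

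In vWAT of trained mice 4 of 37 members were lower, against 1.42% of all genes, with a median of −0.33. All 4 were also called in sedentary mice (14.3% of those 28), and for 3 of them (Cox6a1, Cox6c and Uqcr10) every HFD library lay below every chow library, against 0.973% of all genes. Cox6a1 measured 639, 650.4, 530.5, 657 and 648 CPM in chow trained mice and 496, 464, 441, 516 and 478 in HFD trained mice (log2 fold change −0.56, SE 0.11, adjusted p = 0.0034). Uqcr10 measured 744, 754, 763, 774 and 696 and 646, 512, 598, 524 and 616 CPM (log2 fold change −0.54, SE 0.12, adjusted p = 0.00547). Cox6c measured 1602, 1736, 1997, 1565 and 1478 and 1296, 1250.1, 1352, 1361 and 1464 CPM (log2 fold change −0.49, SE 0.11, adjusted p = 0.00696). In these 3 genes all chow trained libraries were higher than all HFD trained ones, and the calls were kept in all 10 fits that left out a library. Uqcrq measured 1140.4, 1131, 1202, 944 and 1072 and 1018, 801, 849, 965 and 906 CPM, with overlap (log2 fold change −0.45, SE 0.12, adjusted p = 0.036), and kept its call in 3 of 10. Within the pool of 12 alone 2 members were called, with the pool as a factor 2, and without the libraries with lymph node transcripts none.

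**Figure D4:**
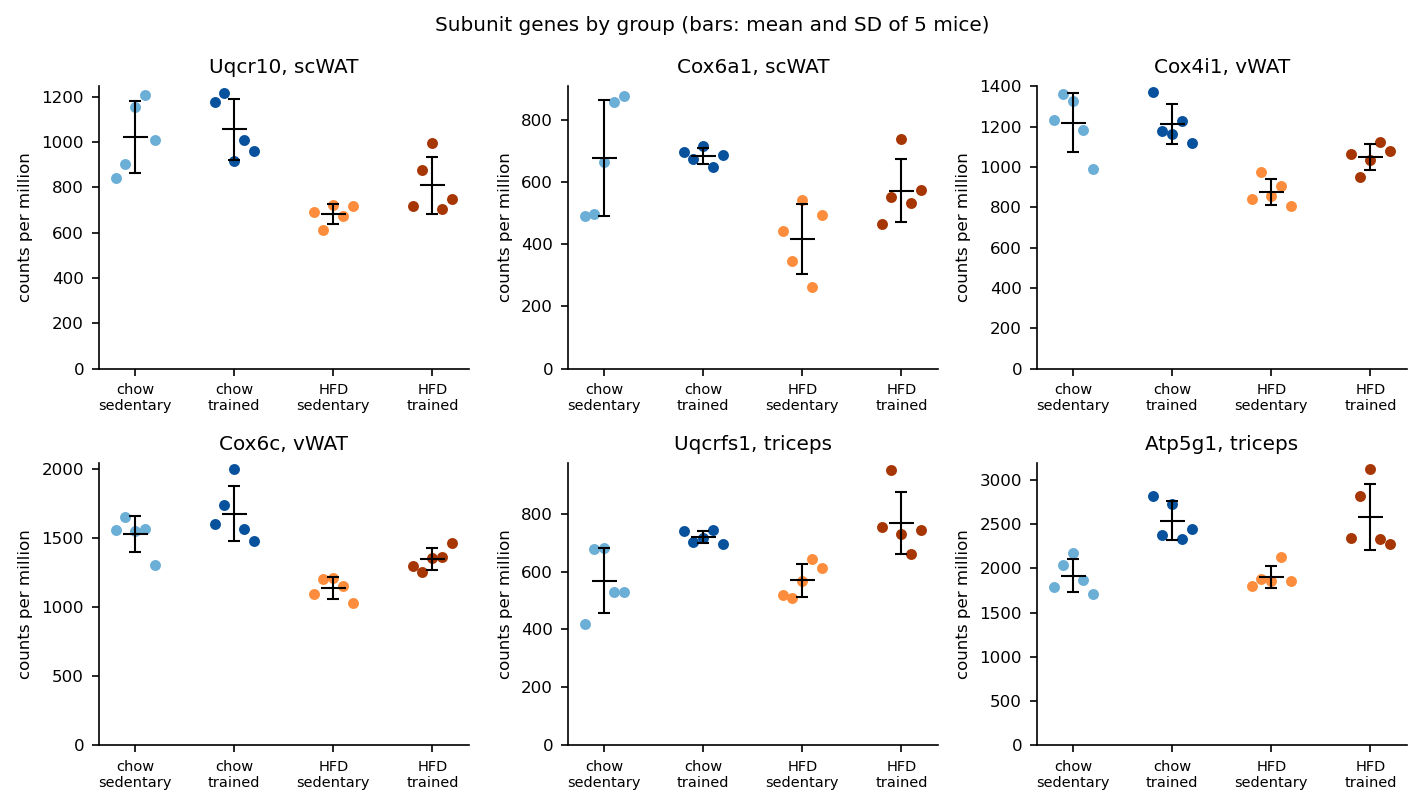
CPM per library (vertical) of 6 members in the tissue where they are described, by group, with the mean and SD of 5 mice. Uqcr10 in scWAT and Cox4i1 and Cox6c in vWAT show every HFD sedentary library below every chow sedentary library, and Uqcrfs1 and Atp5g1 in triceps show every HFD trained library above every HFD sedentary library.

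Triceps showed no call for diet by edgeR, among the members or among all 4410 genes (0.00% called), in sedentary or trained mice. At an unadjusted p below 0.05 there was 1 member in sedentary and 0 in trained mice, and 198 and 308 genes in all; DESeq2 and voom also called none. The members' medians were −0.08 and −0.04. The range over members was −0.58 to 0.01 in sedentary and −0.20 to 0.17 in trained mice.

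Subunit genes of all 3 complexes were higher in the triceps of trained mice on HFD. On HFD 18 of 37 members were higher and none lower, against 3.33% of all genes higher and 2.02% lower. They were 3 of 8 in complex III, 7 of 12 in complex IV and 8 of 17 in complex V, and the median log2 fold change was 0.42, against −0.01 over all genes tested. For 3 members (Uqcrfs1, Cox5a and Atp5g1) every trained library lay above every sedentary library, against 1.09% of all genes. Scaling by total counts moved the median of all genes to −0.19 and left 7 members called higher, with the members' median minus that of all genes at 0.43 with TMM and 0.41 with total counts.

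Uqcrfs1 measured 517, 509, 568, 642 and 611 CPM in HFD sedentary and 755, 951, 729.8, 659 and 745 CPM in HFD trained mice, without overlap, and its log2 fold change was 0.62 (SE 0.13, adjusted p = 0.00158). Uqcrc2, a core protein of complex III, measured 364, 438, 417, 549.8 and 602 and 595, 746, 619, 618 and 627 CPM (log2 fold change 0.62, SE 0.14, adjusted p = 0.00418); the sedentary replicate 5 reached into the trained range. Uqcrq was also higher (0.65, SE 0.15, adjusted p = 0.00803). Uqcrc1 measured 168, 136, 138, 132 and 109 and 156, 165, 146, 134 and 162 CPM, with overlap (log2 fold change 0.35, SE 0.14, adjusted p = 0.165). Uqcr10 and Uqcrb, called lower under HFD in fat, had the smallest values in complex III here (0.24 each, not called).

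Cox5a, a subunit on the matrix side of complex IV, measured 733, 657, 723, 783 and 614 CPM in HFD sedentary and 873, 955, 910.4, 826 and 898 CPM in HFD trained mice, without overlap, with a log2 fold change of 0.54 (SE 0.11, adjusted p = 0.00135). Cox5b, its neighbour on the matrix side, measured 381, 364, 406, 406 and 351 and 559, 523, 583, 407 and 395 CPM (log2 fold change 0.56, SE 0.13, adjusted p = 0.00418). Of the trained libraries of Cox5b, replicates 1 to 3 were high and replicates 4 and 5 close to or inside the sedentary range. Cox4i1 measured 1118, 1191, 1179, 1189 and 971 and 1482, 1548, 1532, 1181 and 1193 CPM (log2 fold change 0.49, SE 0.12, adjusted p = 0.0091), and Cox6b1 measured 1336, 1586, 1522, 1779 and 1454 and 2017, 2037, 2379, 1587 and 1475 CPM (log2 fold change 0.50, SE 0.13, adjusted p = 0.0131). Both showed the same split among the trained libraries.

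Cox6a1, Cox6a2, Cox7a2, Cox7a2l and Cox8a were not called on HFD. Cox6a2 measured 2719.6, 2618, 2693, 2118 and 1328 and 2744, 2719, 2502, 1902 and 2046 CPM (log2 fold change 0.26, SE 0.17, adjusted p = 0.45), and Cox6a1 measured 27.3, 27.0, 11.1, 24.8 and 22.7 and 28.1, 23.5, 25.2, 28.6 and 20.1 CPM (log2 fold change 0.34, SE 0.24, adjusted p = 0.485). Cox8a measured 63.7, 68.2, 66.5, 89.6 and 78.1 and 91.2, 98.2, 109.5, 76.3 and 61.8 CPM (log2 fold change 0.44, SE 0.17, adjusted p = 0.133). All 3 overlapped between the groups. Cox7a2 measured 987, 1123, 1162, 1339.5 and 1154 and 1286, 1292, 1528, 1104 and 963 CPM (log2 fold change 0.29, SE 0.13, adjusted p = 0.189), and Cox7a2l measured 237, 252, 238, 270.1 and 271 and 296, 296, 309, 247 and 267 CPM (log2 fold change 0.34, SE 0.13, adjusted p = 0.104). Cox6c, Cox7b and Cox7c were higher (0.50, 0.54 and 0.44).

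In ATP synthase, Atp5g1 (ENSMUSG00000006057, chr11:96068852-96075670) measured 1800.4, 1880.5, 1853, 2124 and 1853 CPM in HFD sedentary and 2341, 2817, 3128, 2332 and 2279 CPM in HFD trained mice, without overlap, with a log2 fold change of 0.63 (SE 0.12, adjusted p = 0.000908), the lowest adjusted p of any member in this comparison. Its relative Atp5g3 was also higher (log2 fold change 0.58, SE 0.14, adjusted p = 0.00771), and Atp5g2 was not called (log2 fold change −0.01, SE 0.11, adjusted p = 0.979). Atp5b measured 965, 654, 658, 809 and 622 and 961, 929.8, 943, 845 and 865 CPM (log2 fold change 0.49, SE 0.12, adjusted p = 0.00771); sedentary replicate 1 lay above every trained library and the other 4 below. Atp5a1 measured 1306, 1156, 1249, 1225 and 845 and 1498, 1551, 1421, 1168 and 1214 CPM (log2 fold change 0.44, SE 0.12, adjusted p = 0.0241). The stalk genes Atp5f1, Atp5h and Atp5o and the membrane gene Atp5j2 were higher too, by log2 values of 0.41 to 0.50.

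Not called were Atp5e, with 1741, 1632, 1553, 1877 and 1509.5 and 2116, 1892, 2312, 1452 and 1269 CPM (log2 fold change 0.32, SE 0.13, adjusted p = 0.156), Atp5k, with 866, 937, 904, 1123 and 848 and 1166, 1169, 1368, 764 and 723 CPM (log2 fold change 0.34, SE 0.15, adjusted p = 0.2), and Atp5md, with 1858, 1973, 2062, 2428 and 1952 and 2276, 2333, 2733, 1768 and 1731 CPM (log2 fold change 0.27, SE 0.13, adjusted p = 0.228). In all 3 the lowest library of both groups was trained replicate 5, and trained replicate 4 was the next.

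Trained replicates 4 and 5 and sedentary replicate 5 on HFD came from the pool of 3 libraries. In the order of the replicates, the members took 4.02, 4.20, 4.31, 4.77 and 4.03% of counts in the HFD sedentary and 5.18, 5.37, 5.80, 4.24 and 4.18% in the HFD trained libraries. Within the pool of 12 alone 31 members were called higher, with a median of 0.56, and with the pool as a factor 25. The share of all genes called in these fits is not given, so whether the higher counts are particular to the members is not shown. Leaving out 1 library gave 8 to 23 calls, with 8 without HFD trained replicate 2, and 11 without HFD trained replicate 3 or without HFD sedentary replicate 1. Mitochondrially encoded transcripts took 23.9 to 33.6% of counts in HFD sedentary and 35.8 to 43.2% in HFD trained libraries. The 15 muscle markers summed to 98976 to 136134 and 68461 to 102723 counts, and the 12 macrophage markers, 6 of them with a count in every triceps library, to 196 to 413 and 469 to 694. Of these 12, 3 were tested, and the 1 called higher was Lpl, which muscle and fat cells also express. Their part in the result was not tested.

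On chow 3 of 37 members were higher in trained triceps, against 0.454% of all genes, and none was lower, against 0.295%. All 3 were among the 18 called on HFD (16.7% of those). The median was 0.37, and 27 members had an unadjusted p below 0.05, a count without the share of all genes. Atp5g1 measured 1794, 2037, 2172, 1869 and 1712 CPM in chow sedentary and 2816, 2377, 2728, 2327 and 2447 CPM in chow trained mice, without overlap (log2 fold change 0.54, SE 0.12, adjusted p = 0.0157). Cox4i1 measured 1059.8, 1267, 1334, 974 and 938 and 1602, 1362, 1377, 1330.0 and 1490.3 CPM (log2 fold change 0.49, SE 0.12, adjusted p = 0.0335), and Atp5g3 measured 638, 781, 923, 754 and 623 and 1053, 838, 1035, 949.8 and 1122 CPM (log2 fold change 0.56, SE 0.14, adjusted p = 0.0343). These last genes overlapped by 1 or more libraries.

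Members with every trained library above every sedentary library on chow were Atp5g1, Atp5j2, Cox6c and Uqcrfs1 (4 of 37, against 0.703% of all genes). The 3 calls on chow held in 6 (Atp5g1), 5 (Cox4i1) and 2 (Atp5g3) of 10 fits that left out a library. None was called without chow sedentary replicate 4 or 5 or without chow trained replicate 1 or 3, 1 without chow sedentary replicate 1 and 10 without chow sedentary replicate 3. DESeq2 called 16 members higher and a fit of both groups alone 22. The share of all genes called in those fits is not given, so these counts do not set the members apart. Within the pool of 5 none was called, and within the pool of 12 there were 4. Total counts left 1. No member's training effect was shown to differ between the diets (interaction, 0 of 37 members and 0.00% of all genes called by edgeR). At an unadjusted p below 0.05 by edgeR there were 0 members, and DESeq2 and voom called none.

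In fat, training moved no member past the threshold by edgeR. In vWAT on HFD 36 of 37 members had a positive value, with a median of 0.23, where 1.22% of all genes were called higher and 1.87% lower. At an unadjusted p below 0.05 there were 16 members, a count without the share of all genes. DESeq2 and voom called none, and the pool as a factor gave 2. For 9 members every HFD trained library lay above every HFD sedentary library (Atp5a1, Atp5c1, Atp5j2, Atp5o, Cox6c, Cox7c, Uqcrb, Uqcrc2 and Uqcrfs1), against 1.62% of all genes. Atp5j2, for example, measured 559, 653, 664, 643 and 631 CPM in HFD sedentary and 742, 714, 719, 738 and 711 CPM in HFD trained mice, and Uqcrfs1 measured 189.7, 190.3, 185, 169.8 and 197 and 225, 236, 220.4, 236 and 248. Those 2 genes were chosen after their values were seen.

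In scWAT on HFD the median was 0.22, where 0.707% of all genes were called higher and 0.297% lower. At an unadjusted p below 0.05 there were 5 members, again without the share of all genes. DESeq2 called 1 member lower and voom none. Cox7a2 had every HFD trained library above every HFD sedentary library, where 1.60% of all genes did, and Atp5g1 every one below, where 1.53% did. On chow the medians were 0.13 in scWAT (0 members at an unadjusted p below 0.05, and 0.00% of all genes called) and 0.05 in vWAT (1 member, and 0.272% of all genes called higher and 0.315% lower), and edgeR, DESeq2 and voom called no member. The interaction called no member by edgeR in scWAT (0.00% of all genes called) or in vWAT (0.0143%). At an unadjusted p below 0.05 there were 3 members in each depot, a count without the share of all genes. DESeq2 called 1 in scWAT and none in vWAT. No member's HFD effect was thus shown to differ between sedentary and trained mice by edgeR.

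The HFD effect in sedentary mice was also compared between tissues. Between scWAT and vWAT no member's effect was shown to differ (0 of 37 called, against 1.61% of all genes called). At an unadjusted p below 0.05 by edgeR there were 4 members, a count without the share of all genes. Between scWAT and triceps 1 differed, Uqcr10, whose effect was lower in scWAT by a log2 value of −0.79 (SE 0.20, adjusted p = 0.0226), against 0.600% of all genes lower. In triceps, Uqcr10 measured 818, 828, 895, 931 and 821 CPM in chow sedentary and 893, 863, 968, 1013 and 785 in HFD sedentary mice, with overlap. Cox5a came next (−0.85, SE 0.25, adjusted p = 0.0586). Between vWAT and triceps none was called (0.235% of all genes called lower). At an unadjusted p below 0.05 by edgeR there were 11 members, a count without the share of all genes. The training effect on HFD was not shown to differ between the depots for any of the 37 members (0.00% of all genes called, 0 members and 343 genes at an unadjusted p below 0.05 by edgeR).

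Genes that work with the members gave these counts, each list described by its calls and its median. Over all genes tested, 2.80% were lower on HFD in sedentary scWAT and 4.15% in sedentary vWAT. With training on HFD, 3.33% were higher in triceps and 1.22% in vWAT. The list of other parts of complexes III to V held the mitochondrially encoded subunits, cytochrome c, cytochrome c1, Ndufa4 and the muscle forms Cox7a1 and Cox8b. In scWAT of sedentary mice 5 of 11 were lower on HFD, all of them mitochondrially encoded (mt-Atp6 −1.19, mt-Cytb −1.11, mt-Co2 −1.10, mt-Co3 −1.10 and mt-Co1 −0.77), and the list's median was −1.10. In vWAT 8 of 11 were lower, among them mt-Atp8 (−1.16), Ndufa4 (−0.55) and Cox8b (−1.91), with a median of −1.04. The share of Cox8b in its pair with Cox8a was 13.6 to 15.6% in the 3 chow sedentary vWAT libraries with heart transcripts, 6.25 and 6.52% in the other 2, and 2.98 to 7.21% on HFD. In triceps 9 of 11 were higher with training on HFD, led by mt-Cytb (0.87, SE 0.15, adjusted p = 0.000526) and Cyc1, the gene of cytochrome c1 (0.77, SE 0.14, adjusted p = 0.00079), with a median of 0.52. In vWAT training on HFD raised 4 of 11 (mt-Cytb, mt-Co3, mt-Atp6 and mt-Co2).

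Nuclear subunits of complexes I and II, the entry points of electrons, were lower on HFD in sedentary mice for 8 of 40 in scWAT (median −0.46) and 28 of 40 in vWAT (median −0.48). Over all genes 2.80% and 4.15% were lower. With training on HFD in triceps 13 of 40 were higher (median 0.33), against 3.33% of all genes. Of the assembly factors and inhibitors of complexes III to V, 1 of 27 tested was lower in scWAT (Cox17, a copper carrier for complex IV, −0.56, adjusted p = 0.0286), 0 of 27 in vWAT, and 2 of 29 were higher in triceps with training on HFD (Cox20, 0.48, adjusted p = 0.0403, and Atpif1, the inhibitor of ATP synthase, 0.51, adjusted p = 0.0422). The medians of this list were −0.20, −0.20 and 0.10. Beside the shares over all genes (2.80%, 4.15% and 3.33%), counts this small do not set the list apart. Among regulators of respiratory genes none of 8 tested was called for HFD in sedentary mice in either depot and none of 6 for training on HFD in triceps; Ppargc1a had values of 0.11 (SE 0.61) in scWAT, −0.59 (SE 0.48) in vWAT and 0.37 (SE 0.20) in triceps. The lists were chosen with earlier results of these data known, and no difference between lists was tested.

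Cox8a showed a split in scWAT that followed the pools in every group. In the pool of 9 it measured 583 to 1146 CPM (median 888) and in the pool of 11 from 1143 to 2354 CPM (median 1763), a log2 ratio of the medians of 0.99. Among the other members, with Cox6a2 left out, the same ratio ran from −0.30 (Atp5a1) to 0.46 (Cox7a2l). The HFD effect of Cox8a in sedentary scWAT was −0.46 (SE 0.38, adjusted p = 0.529), from 888, 752, 999.7, 2299 and 2289 CPM on chow and 774, 583, 1873, 1143 and 1633 on HFD. With the pool as a factor it was −0.64 and called lower (edgeR, adjusted p = 0.0311). Within the pool of 9 it was −0.61 and within the pool of 11 −0.73 (neither called). Without the lymph node libraries it was 0.07. That fit kept only replicates 1 and 3 of the chow sedentary mice, both in the pool of 9, against HFD libraries of both pools. In vWAT Cox8a measured 1525 to 1838 CPM in the pool of 5, 1177 to 1598 in the pool of 12 and 1174 to 1640 in the pool of 3, and in triceps 72.7 to 105, 63.7 to 110 and 61.8 to 78.1 CPM, all with overlapping ranges.

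**Figure D5:**
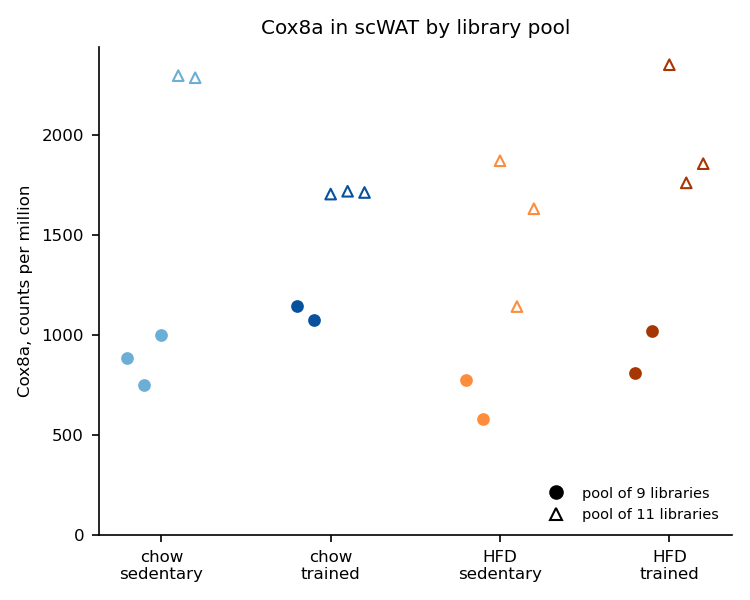
CPM of Cox8a (vertical) in the 20 scWAT libraries by group, with filled circles for the pool of 9 and open triangles for the pool of 11. In every group the triangles lie above the circles.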

How the data were processed

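The 60 libraries, 1 for each of 20 mice in each of 3 tissues, were made as 3′ digital gene expression libraries, and the submitters' processing notes name Salmon 0.14.2 and the mm10 build. The authors deposited estimated counts per gene, rounded to whole numbers, which are not divided by transcript length. The deposited table also holds log2 values of CPM plus 1, which were used only to check the unit. Groups were taken from the labels.

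The counts were fitted per tissue with edgeR 4.0.16 (limma 3.58.1, R 4.3.3) over all 4 groups of the tissue, after edgeR's filter on low counts, with TMM scaling, robust quasi-likelihood tests and Benjamini-Hochberg adjustment over all genes tested (threshold 0.05). Tissues were compared in 1 fit of all libraries with the mouse as a block. Alternatives were total-count scaling, no filter, DESeq2 1.42.0, limma voom, a pool factor, single pools, a muscle marker covariate, fits without libraries holding lymph node transcripts, and leaving out each replicate. The edgeR step was tested on simulated data. Library totals of 505336 to 744581 counts make levels of a few CPM imprecise. Reads of subunit genes with near-identical processed pseudogenes may be split by the counting, which makes single levels uncertain.

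Values per library are given for the 2 members per complex with the lowest adjusted p among those called in each contrast and for a list of watched members, and all others by range and count. The members, the gene lists and these rules were chosen with earlier results of these data known. No 2 libraries held identical values. A motif or sequence shown was copied from the RefSeq promoter table, and members missing from it were not searched.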

Additional observations from a re-analysis of the deposited data

Results flagged for a closer look

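Of 116 groups of 5 libraries examined for members described with values, 7 had a library that stood apart from the others of its group by Dixon's test, where chance gives about 1 in 20. Atp5mpl in scWAT was highest in HFD sedentary replicate 4, at 797 CPM. In vWAT, Uqcr10 was lowest in HFD sedentary replicate 5 (469 CPM), Cox6a1 was lowest in chow trained replicate 3 (530 CPM), and chow sedentary replicate 5 was lowest for both Cox6c (1303 CPM) and Atp5c1 (560 CPM). In triceps, Atp5g1 was highest in HFD sedentary replicate 4 (2124 CPM) and Uqcrc2 was highest in HFD trained replicate 2 (746 CPM).

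The HFD effect on Uqcr10 in sedentary mice differed between scWAT and triceps by −0.79 on the log2 scale, by a test of the difference itself (edgeR, adjusted p = 0.0226).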

How the results depend on the processing

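All counts here are of members called in the stated comparison, without the share of all genes called in each fit. For HFD in sedentary scWAT (11), total counts gave 6, the pool as a factor 17, both groups alone 2, the pool of 9 alone 0, the pool of 11 alone 2, and fits without lymph node libraries 4. The last of these kept only chow sedentary replicates 1 and 3, both in the pool of 9. For HFD in trained scWAT (2), total counts gave 0, DESeq2 8, voom 1, the replicate block 4, the pool factor 5, both groups alone 5, the pools alone 0 and 0, and the muscle covariate 1. DESeq2 gave 1 for training on HFD and 1 for the interaction in scWAT. For HFD in sedentary vWAT (28), total counts gave 7, the pool factor 5, the pool of 12 alone 0, and fits without lymph node libraries 10. For HFD in trained vWAT (4), total counts gave 1, DESeq2 12, the pool factor 2, the pool of 12 alone 2, the muscle covariate 8, and fits without lymph node libraries 0. For training on HFD in vWAT (0), the pool factor gave 2 and both groups alone 1. For training on chow in triceps (3), total counts gave 1, no filter 5, DESeq2 16, the replicate block 5, the pool factor 9, both groups alone 22 and the pool of 5 alone 0. For training on HFD in triceps (18), total counts gave 7 and the pool of 12 alone 31. Chow sedentary libraries alone gave 1 for scWAT against vWAT (5). The replicate block moved no other count by over 1.5 times. It gave 15 for HFD in sedentary scWAT, 25 in sedentary vWAT and 18 for training on HFD in triceps. The labels tie same-numbered libraries of different groups to no common source, and in scWAT replicates 1 and 2 of all groups came from the pool of 9 and replicates 4 and 5 from the pool of 11. The correlation of their deviations from the group means had a median of 0.14 in scWAT, 0.03 in vWAT and 0.02 in triceps (30 pairs each), from −0.16 to 0.56, −0.21 to 0.29 and −0.26 to 0.17, against a median of −0.05 in scWAT and −0.01 in vWAT for different numbers. NRF1 letters lay before the start in 19.4% of member promoters against 6.94% of all. The causes were not tested.

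Leaving out 1 replicate gave 2 to 16 for HFD in sedentary scWAT, 0 to 4 in trained scWAT, 17 to 34 in sedentary vWAT (17 without chow sedentary replicate 3) and 3 to 5 in trained vWAT, 0 to 1 for training on HFD in vWAT (1 without HFD trained replicate 2), 0 to 10 for training on chow and 8 to 23 on HFD in triceps, 36 to 37 and 37 to 37 for triceps against scWAT and vWAT, 1 to 9 for scWAT against vWAT, and 0 to 0 in the other comparisons. In trained scWAT it was 0 without chow trained replicate 2 or HFD trained replicate 1, 4 or 5.

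Log2 fold changes turned sign for Cox4i1 (−0.50), Uqcr10 (−0.25) and Uqcrq (−0.36) in triceps against scWAT and Cox4i1 (−0.13) against vWAT with total counts. They also turned for HFD in sedentary scWAT for Atp5g1 (−0.27 in the pool of 9, and −0.01 without HFD replicate 4 to 0.98 without chow replicate 1 when a replicate was left out), Cox6a2 (−2.26 in the pool of 9, −0.33 with the muscle covariate, and −0.98 without HFD replicate 4 to 3.80 without chow replicate 1), Cox7a2l (0.18) and Cox8a (0.07) without lymph node libraries. In sedentary vWAT they turned for Atp5e (0.01 in the pool of 12), Cox6a2 (0.87 with the pool factor) and Uqcrc1 (0.12 with the pool factor, 0.03 in the pool of 12), and in triceps for Cox6a1 with training on chow (0.15 in the pool of 12). None of these was called in its comparison except those between tissues. For HFD in sedentary scWAT, the fit without lymph node libraries kept only chow sedentary replicates 1 and 3, both in the pool of 9. Of the other values of single members, leave-one-out fits aside, 666 kept direction and side of the threshold, 105 lost the call and 24 gained it. Depth limits the low members, Cox4i2, Cox6b2, Cox7b2 and Cox8c, which were not tested.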
